A study of Mus musculus with 2 samples.

Results

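The genes that encode the nuclear subunits of the respiratory chain were examined in the liver methylome of 1 Pemt-/- mouse and 1 Pemt+/+ mouse. Both mice were fed HFHS chow, a high fat-high sucrose diet. The sample records start this diet at 5 weeks of age and date the livers to 25 weeks, while the Methods describe shorter feeding directly before the enrichment step. Pemt encodes the methyltransferase that makes phosphatidylcholine from phosphatidylethanolamine with S-adenosylmethionine as the methyl donor. In Pemt-/- mice the gene is deleted in the whole animal and not in the liver alone. Neither mouse received standard chow, so the values apply to this diet. Methylated fragments of liver DNA were captured with a methyl-CpG enrichment kit and sequenced, and places where reads (tags) piled up were deposited as regions, in a longer and a shorter list per mouse. With 1 library per genotype there is no replicate check. All differences below are between these libraries and have no p-value.

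Members were chosen by gene symbol in the longer lists: names beginning with Nduf (complex I and its assembly factors), the Sdh genes of complex II, names beginning with Uqcr (complex III), Cox4 to Cox8 (complex IV) and Atp5 (ATP synthase), on the autosomes. The lists held 66 such genes, with a region in at least one mouse. The same names in a RefSeq table added 23 genes that no list paired with a region, so that 89 of 20665 autosomal protein-coding genes were counted. The pairing lists every transcript within 10 kb. The members held 133 of the 97063 regions of the Pemt-/- list and 182 of the 131279 regions of the Pemt+/+ list. By complex the 89 genes comprised 7 core subunits of complex I, 32 other complex I subunits, 4 complex I assembly factors, 4 genes of complex II, 7 of complex III, 18 of complex IV and 17 of ATP synthase. The grouping follows the symbol alone, so Ndufa4 and Ndufa4l2 count with complex I by name only. The symbols also take in Cox4nb, Atp5s and Atp5sl, whose current names no longer place them among the subunits, and Uqcr is the older name of Uqcr11. Another 7 genes that now carry such a name stood in the lists under an older symbol and were left out, among them Ndufaf6, Ndufaf7 and Uqcr10. All of these had a region, while genes with a current name and no region stayed among the 89. The share of the 89 genes with a region can therefore lie too low beside that of all genes. No member row lay on the X chromosome.

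As background, complexes I and II pass electrons from NADH and succinate to ubiquinone, complex III passes them to cytochrome c, and complex IV reduces oxygen. Complexes I, III and IV pump protons, and ATP synthase uses the gradient to make ATP. Most of the subunits are encoded in the nucleus and are made in almost every cell, and hepatocytes are rich in mitochondria. Some complex IV subunits have additional isoforms that are known from lung, muscle or testis. Promoters of widely expressed genes usually carry CpG islands without methylation, and a kit that captures methylated CpG then leaves them without reads. Liver holds several cell types, and the share of cells that carry a methylated site cannot be read from the tag number of a region.

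A region was paired with 57 of the 89 genes in Pemt-/-, which was 64.0% (95% Wilson confidence interval 53.7 to 73.2%), beside 60.6% of all autosomal protein-coding genes. In Pemt+/+ the number was 65 of 89, 73.0% (63.0 to 81.2%), beside 65.1%. These intervals cover counting error only, and the genes left out under an older symbol, which all had a region in a list, are not counted. Both mice had a region at 56 genes. Regions were found only in Pemt+/+ at 9 genes (Atp5d, Cox4i2, Cox6b2, Cox8c, Ndufa3, Ndufa7, Ndufab1, Ndufv1 and Uqcrc2) and only in Pemt-/- at Atp5c1. The whole lists leaned the same way. Of 14073 autosomal genes with a region in either mouse, 13760 had one in Pemt+/+ and 12786 in Pemt-/-. The other 23 genes had no region in either list, among them Ndufs1 and Ndufs3 of the complex I core, Sdhc and Sdhd, which encode the membrane anchor of complex II, Uqcrb of complex III, Cox5a, Cox7a2 and Cox8a of complex IV, and Atp5g1, Atp5g2 and Atp5pb of ATP synthase. A gene without a region had no significant pile-up assigned to it within 10 kb at this depth, and this does not show that it carried no methylation. Genes absent from the annotation behind the lists would also be counted here.

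Of the members' regions, 41 of 133 in Pemt-/- (30.8%) and 53 of 182 in Pemt+/+ (29.1%) lay inside or overlapped a respiratory chain transcript. A region inside or overlapping the transcript was found for 22 of 89 genes in Pemt-/-, 24.7% (16.9 to 34.6%), beside 45.0% of all genes, and for 29 of 89 in Pemt+/+, 32.6% (23.7 to 42.9%), beside 50.1%. The members are short genes, of median length 7.50 kb where all autosomal protein-coding genes have 17.5 kb. Among the 4857 genes within the interquartile length range of the members, 4.02 to 13.0 kb, the corresponding values were 28.9% in Pemt-/- and 37.1% in Pemt+/+, which lie inside the members' intervals. Counted as pairs of a gene and a region, 35 of 134 pairs in Pemt-/- (26.1%) and 44 of 184 in Pemt+/+ (23.9%) lay inside the transcript, beside 71.4% and 70.8% over all autosomal genes, which are longer. Within the length range above, a comparison added after the data were seen, 10 of 60 pairs of members in Pemt-/- lay inside (16.7%, 9.31 to 28.0%), beside 32.9% of the pairs of all genes of that range, and 14 of 80 in Pemt+/+ (17.5%, 10.7 to 27.3%), beside 33.1%. Several pairs can belong to 1 gene, so they are not independent, and the intervals cover counting error only. Upstream positions beyond 2 kb held 32.1% and 30.4% of the members' pairs, and downstream positions beyond 2 kb held 29.9% and 32.1%. Over all genes each of these classes held 11% to 12%, not matched for gene length.

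**Figure D1:**
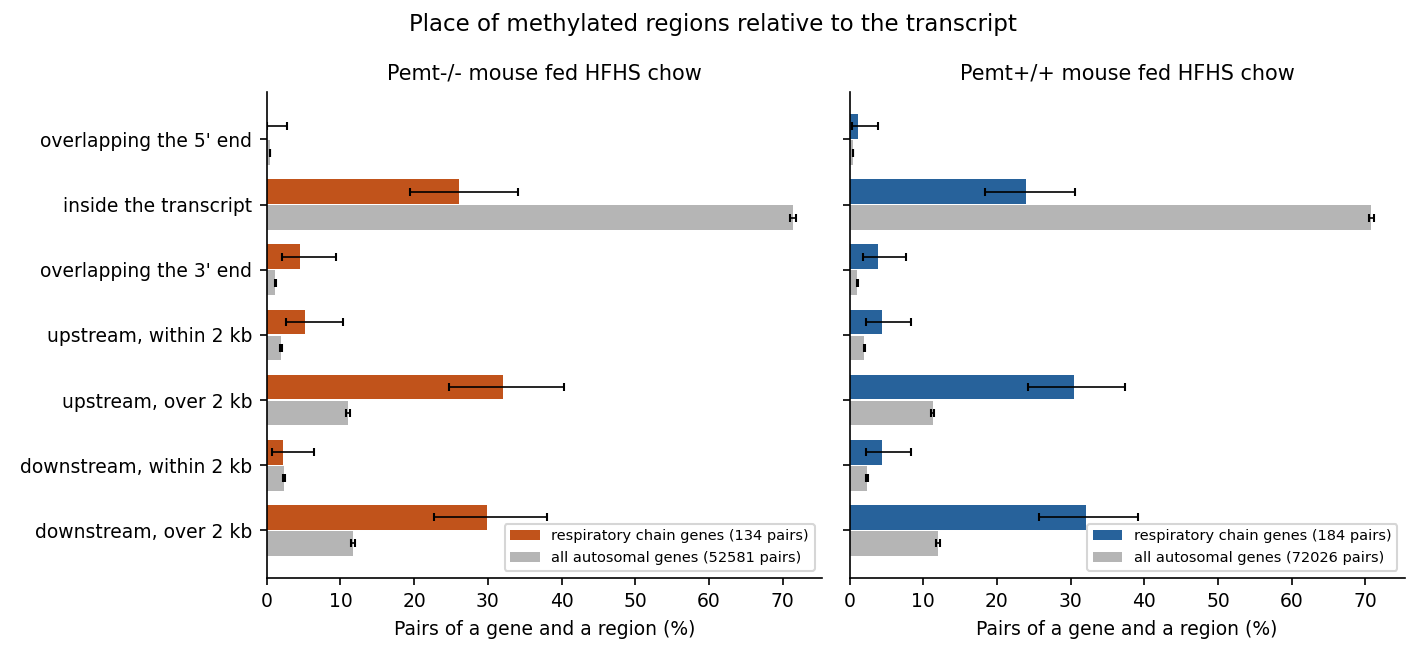
Share of pairs of a gene and a region in each class of position (x axis, percent; bars with 95% Wilson intervals) in the Pemt-/- mouse (left) and the Pemt+/+ mouse (right), for respiratory chain genes (coloured) and all autosomal genes (grey). In both mice the bar inside the transcript is shorter for respiratory chain genes (26.1% and 23.9%) than for all genes (71.4% and 70.8%), and the bars beyond 2 kb are longer. The bars are not matched for gene length.

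Since the pairing reaches 10 kb, many of these regions belonged to the body of a neighbouring gene. In Pemt-/-, 92 of the 133 regions lay outside every member transcript, and 46 of these were inside or overlapped another gene. In Pemt+/+ the numbers were 129 of 182 and 67. Only 55 and 69 regions were paired with members alone. The pair of regions with the most tags in Pemt-/-, assigned to Ndufb6, lay inside Topors, 4 of the 5 Atp5h regions of Pemt+/+ lay inside Ict1, and the region of Sdha lay inside Ccdc127.

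At the 5' end of the transcript, where the promoter lies, no respiratory chain gene had an overlapping region in Pemt-/- (0 of 89, with an upper limit of 4.14%), beside 0.968% of all autosomal protein-coding genes. In Pemt+/+ there were 2 of 89 (2.25%, 0.618 to 7.83%), beside 1.45%. These were Cox7b2 and Cox8c, isoforms of complex IV subunits known from testis. The Cox7b2 region on chromosome 5, from 71939337 to 71939971 (mm9), held 20 tags at a fold enrichment of 17.7 over the background, and the nearest region of the Pemt-/- list was 107366 bp away. The Cox8c region on chromosome 12, from 104137339 to 104137777, held 16 tags at a fold enrichment of 20.9, and the nearest Pemt-/- region was 31525 bp away. Regions with so few tags were often missed in the other mouse. Among all autosomal Pemt+/+ regions, 27.3% of those with 20 tags and 42.3% of those with 16 tags had no counterpart in Pemt-/-.

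With the 2 kb upstream of the transcript included, 6 of 89 genes in Pemt-/- (6.74%) and 10 of 89 in Pemt+/+ (11.2%) had a region, beside 5.73% and 7.91% of all genes. The closest ones belonged to Cox6c and Ndufb2. The Cox6c region, on chromosome 15, ended 213 bp upstream of the transcript in Pemt-/- with 23 tags and 311 bp upstream in Pemt+/+ with 45 tags. The region of Ndufb2, an accessory subunit of complex I, lay on chromosome 6 and ended 265 bp upstream with 21 tags in Pemt-/- and 392 bp upstream with 33 tags in Pemt+/+. Cox5b, which encodes a complex IV subunit used in all tissues, had a region of 23 tags 737 bp upstream in Pemt+/+ (chromosome 1, 36747136 to 36747594) and none there in Pemt-/-. Cox8b, the muscle isoform of subunit 8, had 13 tags at 1002 bp in Pemt-/- and 14 tags at 1027 bp in Pemt+/+.

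**Figure D2:**
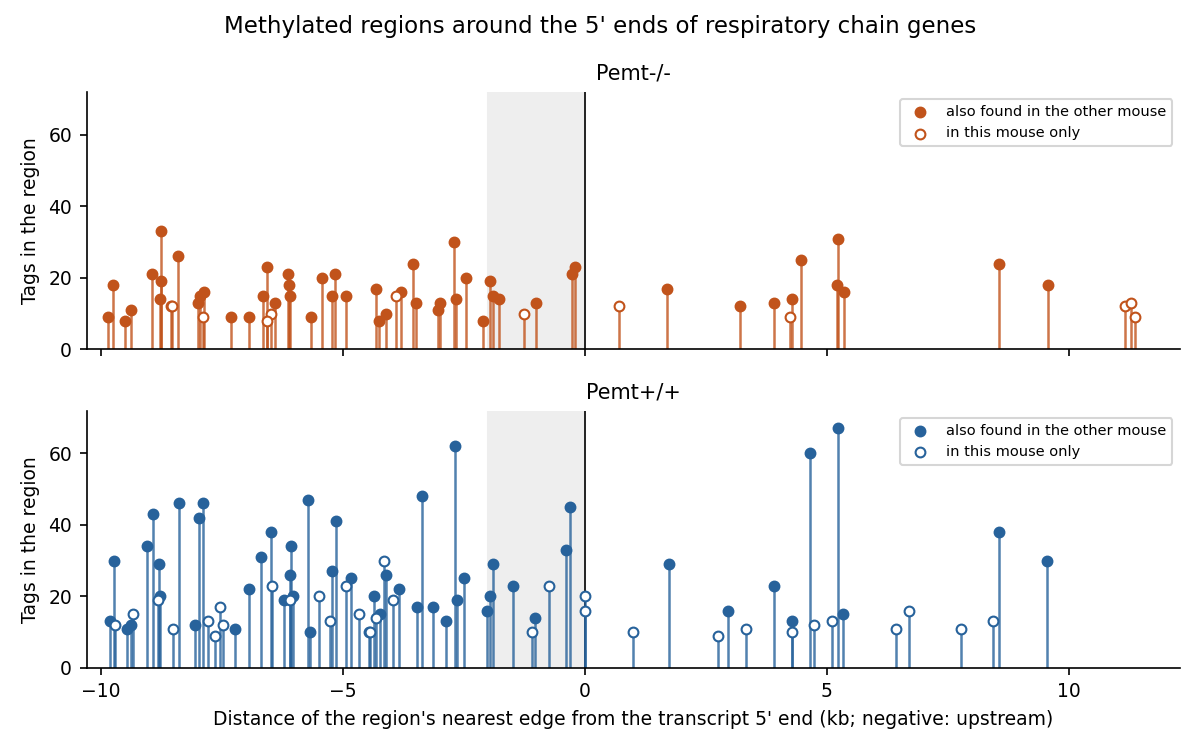
Tags in each region (y axis) against the distance of its nearest edge from the 5' end of the transcript (x axis, kb, negative upstream), for 65 pairs of a gene and a region in Pemt-/- (top) and 85 in Pemt+/+ (bottom). Regions downstream or at the 3' end, those more than 12 kb inside and those whose 5' end could not be derived are not shown. Filled points were also found in the other mouse, open points were not, and grey marks the 2 kb upstream. At 0 kb stand the regions of Cox7b2 with 20 tags and Cox8c with 16 tags, both in Pemt+/+ only.

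RefSeq promoter windows of assembly GRCm38.p6, 250 bases before to 50 bases after a gene's start, were matched by gene identifier to 72 of the 89 genes, with 78 windows. The median window held 20 CG dinucleotides (interquartile range 15 to 25), beside 14 (4 to 25) over 20085 windows of all autosomal protein-coding genes. The median ratio of observed to expected CG was 0.828 against 0.586. The 4 windows of isoforms known from other tissues (Cox6b2, Cox7a1, Cox7b2 and Cox8b) held 10, 7, 10 and 2 CG, and the 74 other windows held a median of 20. The palindromic consensus of the factor NRF1 was found in 6 of 78 windows (7.69%), beside 1.34% of all windows. The letters CCGGAAG, which ETS factors such as GABP bind, were found on either strand in 17 windows (21.8%), beside 11.9%. Both motifs occurred in 2 windows, those of Atp5k and Cox6a1. The motifs do not hold one another, and each contains CG, so windows rich in CG have more chances to hold them. A match is a description of the letters and not of binding.

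**Figure D3:**
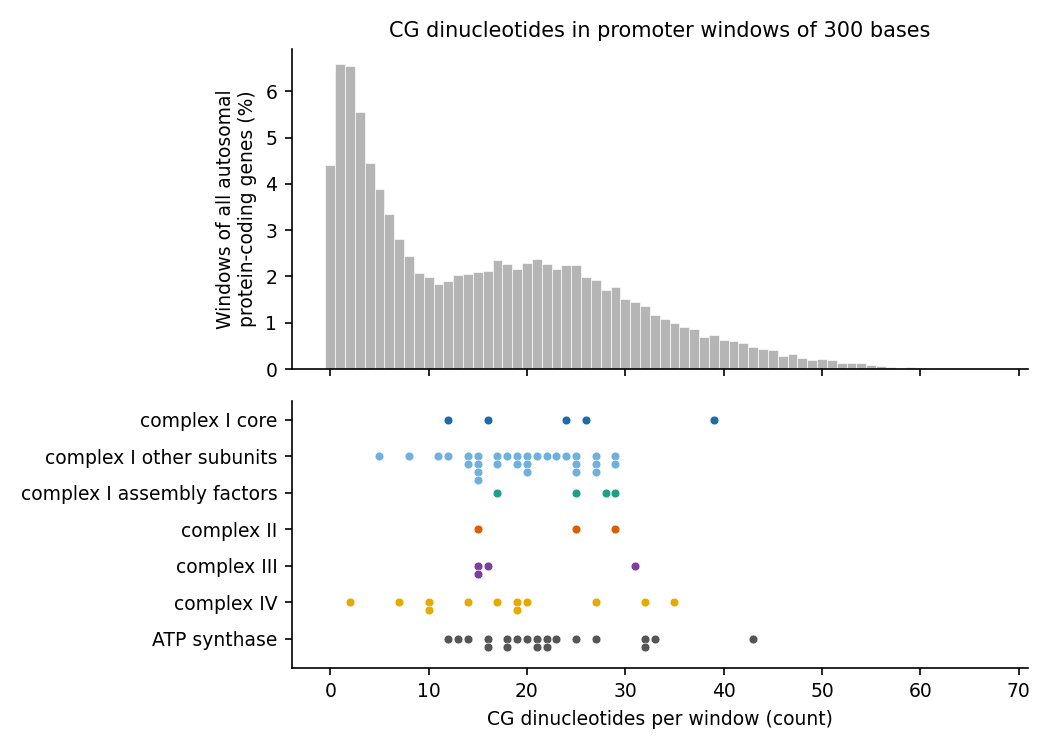
CG dinucleotides per promoter window of 300 bases (x axis, count) for all autosomal protein-coding genes (top, percent of windows) and for each window of a respiratory chain gene by complex (bottom, 1 point per window, stacked where equal). Windows of all genes have a peak below 5 CG and a broad hump around 20, and most respiratory chain windows lie in the hump, with Cox8b at 2 CG and Ndufb4b at 5 CG among the exceptions.

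Windows are shown for Cox7b2, Cox8b, Cox5b and Ndufb2, which had a region over or within 2 kb upstream of the 5' end, and for contrast for Sdhb and Atp5b, which had none there. Windows of Cox4i2, Cox6a2, Cox6c, Cox8c and Ndufa4l2 were not among those matched. Those shown are printed with CG in capitals and the strand of the gene read 5' to 3'. Cox7b2 (chr5:71548156-71548455, minus strand) had a region over its 5' end in Pemt+/+ and holds 10 CG. Cox8b (chr7:140900397-140900696, minus strand) had a region 1 kb upstream in both mice and holds 2 CG. Cox5b (chr1:36691237-36691536, plus strand) had a region 737 bp upstream in Pemt+/+ only and holds 27 CG. Ndufb2 (chr6:39592315-39592614, plus strand) had a region just upstream in both mice and holds 14 CG. Sdhb (chr4:140961021-140961320, plus strand) had the region with the most tags inside a member transcript and none within 2 kb upstream, and holds 15 CG and the letters CCGGAAG. Atp5b (chr10:128083057-128083356, plus strand), for the catalytic beta subunit of ATP synthase, had a single region 8.94 kb upstream in Pemt-/- and 9.05 kb in Pemt+/+ and holds 18 CG. These coordinates are of GRCm38.p6 and cannot be set against the mm9 positions of the regions.
Cox7b2: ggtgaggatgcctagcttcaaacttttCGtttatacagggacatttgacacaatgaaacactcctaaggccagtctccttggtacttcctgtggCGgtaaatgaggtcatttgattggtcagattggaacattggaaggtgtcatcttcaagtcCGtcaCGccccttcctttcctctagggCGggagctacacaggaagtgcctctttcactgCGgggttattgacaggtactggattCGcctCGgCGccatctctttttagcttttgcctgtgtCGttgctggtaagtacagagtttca
Cox8b: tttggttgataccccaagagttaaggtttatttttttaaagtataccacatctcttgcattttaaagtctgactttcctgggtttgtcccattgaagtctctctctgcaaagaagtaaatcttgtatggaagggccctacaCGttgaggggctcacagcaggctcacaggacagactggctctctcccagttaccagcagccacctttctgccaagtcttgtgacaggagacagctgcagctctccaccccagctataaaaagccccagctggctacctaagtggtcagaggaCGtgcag
Cox5b: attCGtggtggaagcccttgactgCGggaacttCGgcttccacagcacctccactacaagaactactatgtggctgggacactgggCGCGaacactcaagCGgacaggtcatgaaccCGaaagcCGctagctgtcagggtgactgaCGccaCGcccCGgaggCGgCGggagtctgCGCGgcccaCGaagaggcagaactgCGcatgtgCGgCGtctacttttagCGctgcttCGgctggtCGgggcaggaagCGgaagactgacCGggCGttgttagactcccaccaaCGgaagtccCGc
Ndufb2: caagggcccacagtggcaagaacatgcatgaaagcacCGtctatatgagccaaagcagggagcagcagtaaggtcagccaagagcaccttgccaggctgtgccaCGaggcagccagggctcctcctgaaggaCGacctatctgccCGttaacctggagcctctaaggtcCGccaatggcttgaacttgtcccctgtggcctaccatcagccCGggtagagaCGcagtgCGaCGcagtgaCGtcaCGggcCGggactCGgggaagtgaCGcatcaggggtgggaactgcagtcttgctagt
Sdhb: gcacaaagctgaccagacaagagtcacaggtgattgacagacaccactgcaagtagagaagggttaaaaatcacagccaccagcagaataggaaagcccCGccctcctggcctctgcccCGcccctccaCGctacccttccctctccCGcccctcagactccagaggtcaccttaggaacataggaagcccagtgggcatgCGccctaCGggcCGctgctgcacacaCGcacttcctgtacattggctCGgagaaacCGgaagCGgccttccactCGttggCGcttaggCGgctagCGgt
Atp5b: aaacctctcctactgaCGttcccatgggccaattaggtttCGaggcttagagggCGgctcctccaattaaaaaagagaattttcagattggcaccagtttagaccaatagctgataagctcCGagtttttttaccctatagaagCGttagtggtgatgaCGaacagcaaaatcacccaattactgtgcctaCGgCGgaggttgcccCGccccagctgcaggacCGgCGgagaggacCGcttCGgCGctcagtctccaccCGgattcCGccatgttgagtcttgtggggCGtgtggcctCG
Of the CG letters, those in the 150 bases nearest the right end, which holds the start of the gene, numbered 18 of 27 in Cox5b, 13 of 18 in Atp5b, 11 of 15 in Sdhb, 10 of 14 in Ndufb2, 8 of 10 in Cox7b2 and 1 of 2 in Cox8b.

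For the core of complex I, which carries the flavin and the iron-sulphur clusters, 4 of 7 genes had a region in Pemt-/- and 5 in Pemt+/+, with 89 and 230 tags. Ndufs8, an iron-sulphur subunit, had 1 region with 12 tags in Pemt-/- and 4 regions with 63 tags in Pemt+/+. Downstream of the gene, inside Tcirg1, its shared region held 12 and 27 tags, and the other regions, with 11, 10 and 15 tags, were in Pemt+/+ only. Ndufv1, which binds the flavin, had a pair of regions of 13 tags each in Pemt+/+ and none in Pemt-/-. The regions that Ndufs8 and Ndufv1 had in Pemt+/+ alone were thus small, beside the smallest listed tag numbers of 8 in Pemt-/- and 9 in Pemt+/+.

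The other subunits of complex I, as grouped by name, held 48 regions with 799 tags in Pemt-/- and 62 regions with 1396 tags in Pemt+/+. Ndufb6, an accessory subunit of the membrane arm, had the regions with the most tags, in Pemt+/+ together with Sdhb. Its regions 7.51 to 9.28 kb downstream, inside Topors, held 46 and 52 tags in Pemt-/- and 67 tags each in Pemt+/+, and its region inside the transcript held 15 and 34. Ndufs4, an accessory subunit whose loss in mice is a model of Leigh syndrome, is a long gene of 99.4 kb, and its 8 regions held 128 tags in Pemt-/- and its 9 regions 199 in Pemt+/+. Of these, 5 lay inside the transcript in Pemt-/- and 6 in Pemt+/+, all between 51.2 and 85.8 kb from the 5' end. Ndufab1, the mitochondrial acyl carrier protein, had a region of 24 tags inside the transcript in Pemt+/+ and none in Pemt-/-. Of all autosomal Pemt+/+ regions with 24 tags, 18.5% had no counterpart in Pemt-/-. Ndufa4l2, the paralog of Ndufa4 known from hypoxic cells, had 1 region with 9 tags in Pemt-/- and 4 regions with 67 tags in Pemt+/+, inside Stac3 and Shmt2 on either side. Ndufv3 went the other way in part: a region of 24 tags over its 3' end (chromosome 17, 31668093 to 31668670) was in Pemt-/- only. This was so for 1.83% of all autosomal Pemt-/- regions with 24 tags. The region was named for having the most tags of the members' unshared Pemt-/- regions, so a low percentage follows from the choice. It was not in the shorter list. The Ndufv3 region inside the transcript, with 21 tags, was in Pemt+/+ only.

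Among the complex I assembly factors, Ndufaf2 held 13 regions with 192 tags in Pemt-/- and 16 regions with 328 tags in Pemt+/+, the most of any member. Of these, 4 in Pemt-/- and 3 in Pemt+/+ lay upstream of the transcript, inside Ercc8, and the others lay inside it, between 2.97 and 91.5 kb from the 5' end. At 34.3 kb a shared region had 20 Pemt-/- tags and 36 Pemt+/+ tags, and another at 57.0 kb had 20 and 24. Ndufaf1 had 28 tags in Pemt-/- and 27 in Pemt+/+, in 3 and 2 regions of which a single one was shared, with 11 and 17 tags. Ndufaf3 had 32 and 63 tags, and a region of 30 tags upstream, inside Dalrd3 and over the 3' end of Wdr6, was in Pemt+/+ only. Ndufaf4 had none in either mouse.

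In complex II, which is also the succinate dehydrogenase of the citric acid cycle, Sdha and Sdhb of the catalytic head had regions, and Sdhc and Sdhd had none. Sdhb had 5 regions in each mouse, with 90 tags in Pemt-/- and 172 in Pemt+/+. Its region inside the transcript, 5.23 kb from the 5' end on chromosome 4 (140522418 to 140523093 in Pemt+/+), had 31 Pemt-/- tags and 67 Pemt+/+ tags. The upstream region held 20 and 47 tags and the region over the 3' end 14 and 30. Sdha had 18 and 34 tags in a region upstream, 6.12 and 6.07 kb away. All 4 paired regions of complex II had a ratio of Pemt-/- to Pemt+/+ tags between 0.426 and 0.529, with a median of 0.465, beside 0.682 over all 78303 paired autosomal regions. Their summed share of tags from Pemt-/- was 31.8% (26.4 to 37.7%), beside 39.9% over all paired regions. With 4 regions of a pair of genes in 1 mouse each, this describes these libraries only. Sdhb also had 2 unshared regions in each mouse, with 25 tags in Pemt-/- and 28 in Pemt+/+. Over all regions of complex II the share was 34.4% (29.4 to 39.8%), near the 35.6% of all autosomal genes.

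In complex III, regions were paired with 5 of 7 genes in Pemt-/- and 6 in Pemt+/+, with 144 and 317 tags, and in Pemt-/- none of them touched a transcript of the complex. Uqcrfs1, the Rieske iron-sulphur protein, had a region 8.91 kb downstream with 31 and 61 tags and another 6.10 kb upstream with 15 and 26. Uqcrc2, a core protein, had regions of 24 and 13 tags in Pemt+/+ and none in Pemt-/-. Uqcrq had 21 tags in Pemt-/- and 20 in Pemt+/+, in a region inside Gdf9. Its ratio of 1.05 lay more than 1.5-fold above the median of 0.682 over all paired autosomal regions, as did 10.4% of all pairs. The share of its tags from Pemt-/- was 51.2% (36.5 to 65.7%), an interval that includes the 39.9% over all paired regions.

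In complex IV, 11 of 18 genes had a region in Pemt-/- and 14 in Pemt+/+, with 318 and 601 tags. The isoforms known from other tissues differed among themselves. Cox7a1, the muscle isoform of subunit 7a, had 4 regions and 47 tags in each mouse. Cox6a2 and Cox8b, also from heart and skeletal muscle, had 35 and 52 tags in Pemt-/- and 45 and 82 in Pemt+/+. Cox4i2, known from lung, had regions of 13 and 11 tags in Pemt+/+. There Cox6b2, known from testis, had 14 tags and Cox8c had 16, and none of these 3 genes had a region in Pemt-/-. Such absence was common at these tag numbers. Of all autosomal Pemt+/+ regions with 11, 13, 14 and 16 tags, 66.6%, 57.2%, 51.4% and 42.3% had no counterpart in Pemt-/-. Cox7b2 had 16 tags in Pemt-/- and 33 in Pemt+/+. Of the widely used subunits, Cox6c had 60 and 101 tags in 3 regions that were all shared, and Cox5b had 28 and 93 tags, of which 47 were in regions found in Pemt+/+ only.

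For ATP synthase, 11 of 17 genes had a region in each mouse, with 391 tags in Pemt-/- and 755 in Pemt+/+. Atp5e, the epsilon subunit of the central stalk, had 52 tags in 2 regions in Pemt-/- and 171 tags in 5 regions in Pemt+/+. Its shared region at the 3' end held 42 and 60 tags, and a region inside Tubb1 with 47 tags was in Pemt+/+ only. This was so for 2.29% of all autosomal Pemt+/+ regions with 47 tags. The region was named for having the most tags of the members' unshared Pemt+/+ regions, so a low percentage follows from the choice. It was not in the shorter list. Atp5a1, the alpha subunit, held 65 and 95 tags in 4 and 3 regions. Atp5c1, the gamma subunit, had regions of 9 and 8 tags inside its transcript in Pemt-/- and none in Pemt+/+. Regions of 8 tags were missed in the other mouse in 43.1% of all autosomal cases. Atp5o, the stalk protein that confers sensitivity to oligomycin, held 62 and 111 tags, with a region upstream at 15 and 42, 7.95 and 7.98 kb away.

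The comparison over all members followed the whole lists. Of the 133 regions in Pemt-/-, 22 overlapped no Pemt+/+ region (16.5%, 11.2 to 23.8%), beside 17.7% of all 46362 autosomal regions paired with a gene. Of the 182 regions in Pemt+/+, 73 overlapped no Pemt-/- region (40.1%, 33.3 to 47.4%), beside 39.6% of 63124. Unshared regions were smaller, with a median of 10 tags in Pemt-/- and 13 in Pemt+/+, than shared ones, with 15 and 22. The members' shares thus lay beside those of all genes in both directions, with all background values inside the intervals.

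A total of 107 regions had exactly 1 counterpart, and their Pemt-/- tags divided by their Pemt+/+ tags gave a median ratio of 0.714 (interquartile range 0.526 to 0.850), beside 0.682 over all paired autosomal regions. Library totals are not in the files, so ratios are read against that median and not against 1. Pemt-/- had more tags in 11 pairs, Pemt+/+ in 94, and 2 were equal. At least 1.5-fold above the median ratio lay 11 pairs (10.3%, beside 10.4% of all pairs) and 1.5-fold below it 13 (12.1%, beside 10.8%). These shares were near the background. The highest ratios were at Ndufaf3, with 18 tags in Pemt-/- and 10 in Pemt+/+ in a region inside Qrich1, and at Ndufa5, with 36 and 22 tags in a region downstream within 1 kb. The lowest were at Ndufa8, with 9 and 26 tags over the 3' end, and at Atp5o, in the upstream region named above. By position the median ratio was 0.658 for 28 pairs inside or overlapping the transcript, 0.627 for 42 pairs upstream and 0.810 for 37 pairs downstream. By complex it was 0.774 in the complex I core, 0.692 in other complex I subunits and 0.636 in assembly factors. It was 0.577 in complex III, 0.811 in complex IV and 0.765 in ATP synthase, and these groups held 6 to 39 pairs each. Neither split was made over all genes, and several pairs can belong to 1 gene. Differences between positions or complexes therefore cannot be read as particular to the members.

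**Figure D4:**
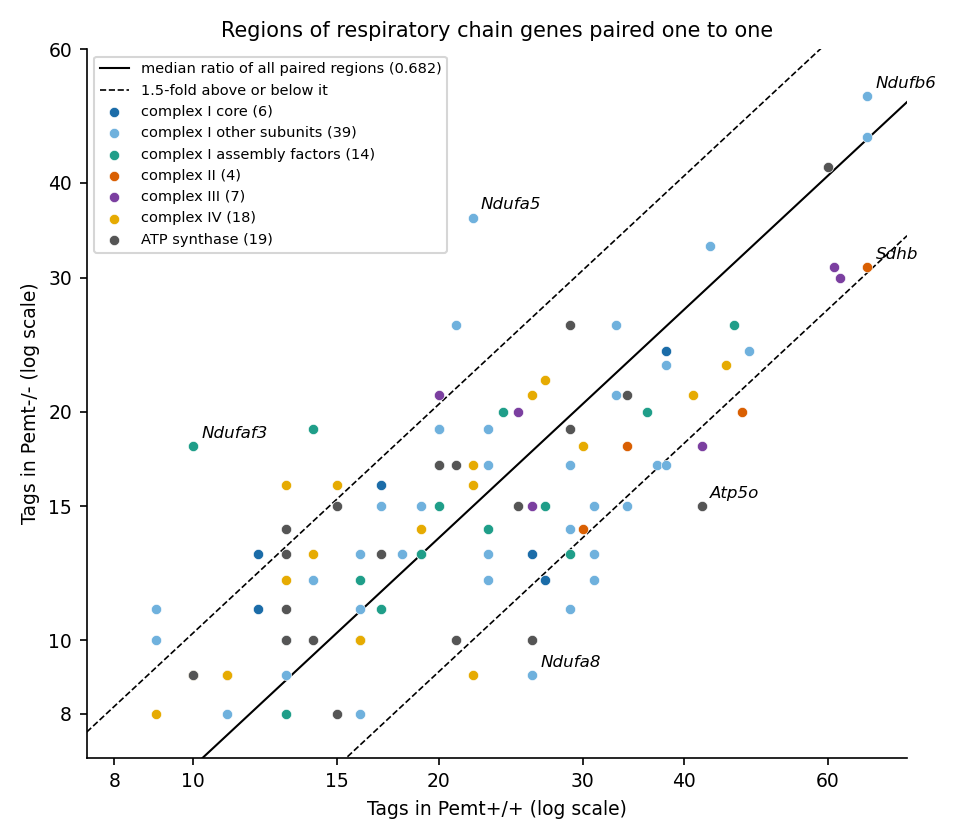
Tags in Pemt-/- (y axis, log scale) against tags in Pemt+/+ (x axis, log scale) for the 107 regions of respiratory chain genes paired one to one, coloured by complex with the number of pairs in the legend. The solid line is the median ratio of all paired autosomal regions (0.682) and the dashed lines lie 1.5-fold above and below it. Most points lie between the dashed lines, and the 4 points of complex II lie below the solid line.

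Summed over all regions, the members had 2101 Pemt-/- tags and 3923 Pemt+/+ tags. The Pemt-/- mouse thus gave 34.9% of their tags (33.7 to 36.1%), beside 35.6% for all autosomal genes. A minimum of 20 tags and a region in each mouse left 55 members, and their median share was 35.5%, beside 36.1% over 12354 genes. The interval lay above the median gene for 7 members (12.7%, beside 13.9% of all genes) and below it for 9 (16.4%, beside 14.9%). Among members with at least 50 tags, Ndufa2 had the highest share, 57.4% (45.5 to 68.4%), followed by Ndufa5 with 53.7% and Ndufaf1 with 50.9%. Ndufa4l2 had the lowest, 11.8% (6.36 to 21.0%), followed by Ndufs8 with 16.0% and Ndufb4 with 19.8%. For Ndufa2 the shared region went the other way, with 14 tags in Pemt-/- and 29 in Pemt+/+, and its share came from regions of 15 and 10 tags listed in Pemt-/- only.

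**Figure D5:**
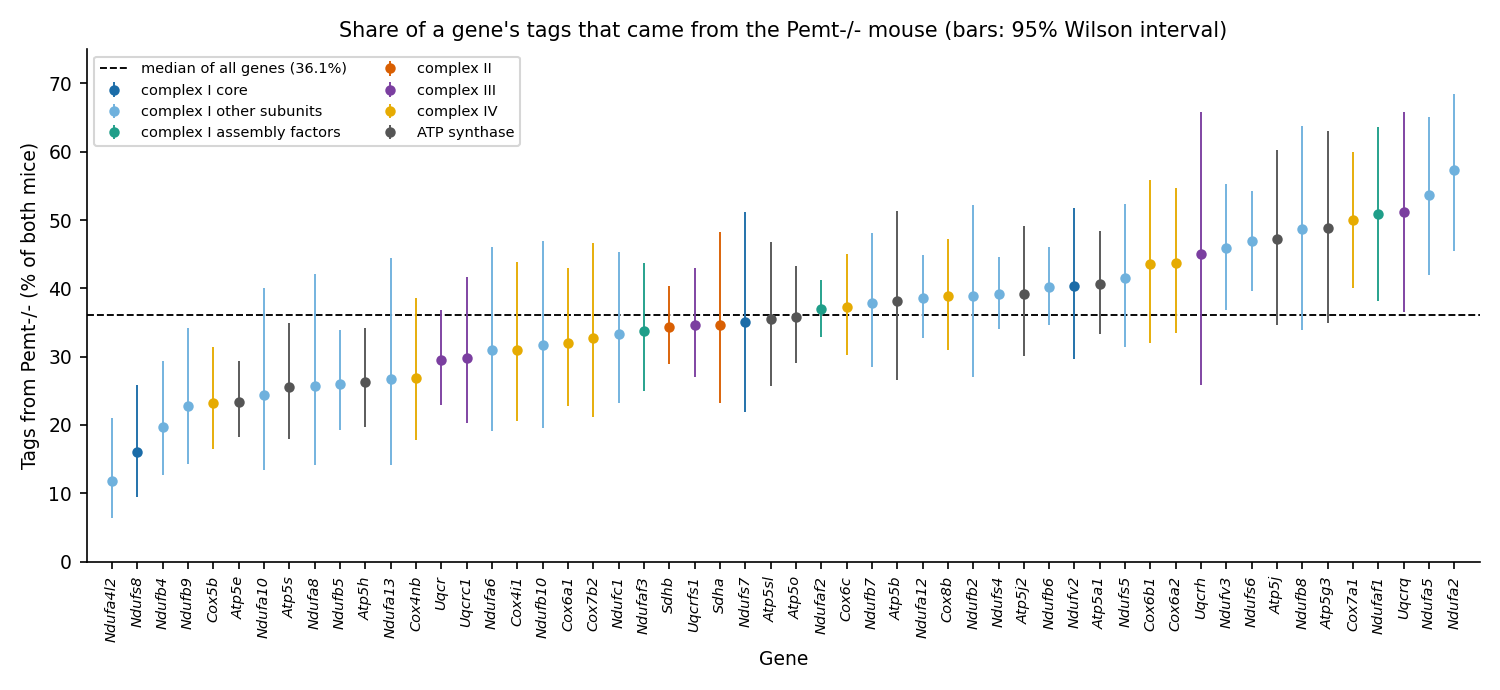
Share of a gene's tags that came from the Pemt-/- mouse (y axis, percent of the tags of both mice; bars are 95% Wilson intervals) for 54 of the 55 respiratory chain genes listed in both mice with a minimum of 20 tags, in rising order and coloured by complex. The dashed line is the median of all genes (36.1%). Genes run from 11.8% (Ndufa4l2) to 57.4% (Ndufa2), with members of most complexes on both sides of the line.

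What the shorter lists hold is not stated in the sample records, and they appear to give regions with more reads in that mouse than in the other. No member region stood in the shorter Pemt-/- list of 2160 regions, beside 2.22% of all autosomal regions paired with a gene. The authors' false discovery rate was 100% for 2159 of these 2160 regions, so presence in that list or absence from it says little. In Pemt+/+, 11 of the 182 regions (6.04%) also stood in the shorter list of 6098 regions, beside 4.72%. The shorter list held 12 regions at 9 genes in all, among them Atp5h, Atp5o, Cox5b, Ndufa4l2, Ndufb4, Ndufb5, Ndufb9 and Uqcrc2. The authors' false discovery rate for them ranged from 28.4% to 36.3%, in a list whose lowest value was 21.1% and whose median was 32.6%. The highest score belonged to the 3' end of Ndufb4, an accessory complex I subunit, with 32 tags on chromosome 16 from 37646970 to 37648017. It was followed by an upstream region of Atp5o with 42 tags and another with 20. The region upstream of Cox5b, described above, was the only one of the 12 within 2 kb upstream of a 5' end, and Uqcrc2, with regions of 24 and 13 tags, had none in the longer Pemt-/- list.

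Other genes of the pathway, taken from a list of 48 assembly factors and electron carriers, had a region in 29 cases in Pemt-/- (60.4%) and in 31 in Pemt+/+ (64.6%), beside 60.6% and 65.1% of all genes. None of them had one over the 5' end in either mouse. The 29 with a region in each mouse and a minimum of 20 tags in total, which leave out Cyc1, had a median share from Pemt-/- of 37.5%, and the median ratio of 81 paired regions was 0.707. Cycs, cytochrome c, had 35 tags in Pemt-/- and 60 in Pemt+/+. Cyc1, cytochrome c1 of complex III, had 65 tags in 3 regions of Pemt+/+ and none in Pemt-/-. Cyc1 was named after its values were seen. More autosomal genes had a region in Pemt+/+ (13760) than in Pemt-/- (12786) over the whole lists too. Of 16 symbols of regulators, among which Twnk and Peo1 name the same gene, 11 had a region in Pemt-/- and 12 in Pemt+/+. None of these had one over the 5' end. Both lists were given as symbols, and a gene listed under another symbol may count as having no region. Tfam, the packaging factor of mitochondrial DNA, had 28 and 60 tags, Gabpa had 91 and 112, and Ppargc1b, a coactivator of mitochondrial biogenesis, had 200 and 300. Of the regions of assembly factors and carriers, 2 of 99 in Pemt-/- (2.02%) and 10 of 124 in Pemt+/+ (8.06%) also stood in the shorter lists. For the regulators the numbers were 3 of 39 (7.69%) and 3 of 48 (6.25%), beside the 2.22% and 4.72% of all autosomal regions paired with a gene. These are small counts, given without a test, and nearly all regions of the shorter Pemt-/- list had a false discovery rate of 100%.

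Pemt itself could not be used to test the genotype labels, since methylated regions do not show whether a gene is intact. It had 2 regions inside the transcript, with summed tags of 50 in Pemt-/- and 60 in Pemt+/+. Summed tags over the longer lists were 1582080 in Pemt-/- and 2847831 in Pemt+/+, with a median of 13 and 17 tags per region. The longer Pemt+/+ list and its higher tag numbers moved together with the higher Pemt+/+ values given above, and sequencing depth and genotype cannot be told apart here.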

How the data were processed

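Liver DNA of 1 Pemt-/- and 1 Pemt+/+ mouse was analysed from the deposited lists of enriched regions, made from methyl-CpG capture libraries sequenced on a Genome Analyzer IIx. The sample records also name bisulphite conversion, which the Methods do not. The submitters' processing notes name CASAVA 1.8.2, Bowtie and mm9. Region names are those of the peak caller MACS, and its settings, control and handling of duplicates are not given in the sources used here. The authors deposited tags as raw counts of reads per region, a fold enrichment (a ratio over the background), a score (the -log10 p-value multiplied by 10, at least 50), an FDR in percent, and each region's relation to RefSeq transcripts within 10 kb.

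Each region was counted once per gene. Regions were matched between mice with bedtools 2.31.1 at an overlap of at least 1 bp. Tag ratios were read against the median of all paired autosomal regions, with calls at 1.5-fold, and shares were given Wilson 95% confidence intervals with scipy 1.17.1. They cover counting error only, since reads are not independent molecules. Python 3.11.15, pandas 2.3.3, numpy 2.4.6 and matplotlib 3.10.9 were used. Gene lengths, identifiers and promoters came from RefSeq tables of GRCm38.p6. Overlaps and ratios were tested on simulated data with far more tags per region and larger changes than here. That checked the computation and not how reliable calls at 1.5-fold are at the real tag numbers.

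Members and gene lists were chosen with earlier results of these data known. Genes were named by rule: those with a region over the 5' end or in a shorter list, the 3 regions with most tags and the 3 found in one mouse only per mouse, the 3 highest and 3 lowest shares at 50 tags or more, isoforms of other tissues, the Sdh genes and Pemt. Other genes were named after their values were seen. Values of some genes under the rule are not reported here. Alternatives were an overlap of 50% of both regions, the upper 50% of each list by score, lists of equal size, regions paired with members alone, regions inside or overlapping a transcript, paired regions only and a 2-fold limit. The samples have no replicates, so no test between genotypes was made.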

Additional observations from a re-analysis of the deposited data

How the results depend on the processing

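No paired analysis was possible because there was a single library of either genotype, without replicate numbers. Of the recomputed values, 21 stayed within their interval or within 1.5 times the count, and 19 moved. Lists of equal size gave 28.6% of member regions found in Pemt-/- only, 31.1% in Pemt+/+ only and a Pemt-/- tag share of 38.7%. These follow from fewer Pemt+/+ regions being used. The upper 50% of each list by score gave a share of 33.1%, 37 genes with a region in Pemt-/-, a median ratio of 0.618, and 3 pairs above and 7 below 1.5-fold. Regions inside or overlapping a transcript gave 24.4% found in Pemt-/- only, a share of 36.7%, and 22 and 29 genes with a region. Regions paired with members alone gave a median ratio of 0.655, 6 pairs above and 8 below, and 3 regions in the shorter Pemt+/+ list. Paired regions only gave a share of 39.8%. At a 2-fold limit 2 pairs lay above and 0 below. Apart from the lists of equal size, the cause was not tested. The counts of genes with a region over the 5' end stayed at 0 and 2 under the upper 50% and equal sizes.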
